A study of Mus musculus with 6 samples.

Results

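Long-term hematopoietic stem cells (LT-HSCs) were compared with multipotent progenitors (MPPs) in 2 genotypes, wild-type (WT) and Ing4-/-, by bulk RNA-seq. Of the 6 libraries in the series, the 4 LT-HSC and MPP libraries entered the comparison, and the 2 libraries of the intermediate short-term stem cells (ST-HSCs) are given beside them for reference. The question was which genes separate the most primitive sorted population from the progenitors, in the same direction, whether or not Ing4 is present. Genotype entered the fit as a block, so each MPP library was set against the LT-HSC library of its own genotype. Genes with 10 or more counts in each of the 4 libraries were tested, which left 10170 of 49315 genes. Levels are given in CPM, read counts scaled to the size of each library.

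Cells came from mouse bone marrow, pooled from several animals of each genotype and depleted of lineage-positive cells. The controls were young adult WT mice of the C57BL/6 strain, which nothing describes as littermates, and the Ing4-/- mice lack the gene throughout the body, so the marrow environment lacks it too. Both populations were sorted as Lin- Sca-1+ c-Kit+ (LSK) CD48- cells. LT-HSCs were the CD34- CD150+ fraction and MPPs the CD34+ CD150- fraction. Each population of each genotype is 1 library, the labels give no age or treatment, and nothing says how libraries were spread over preparation or sequencing runs. The error behind a p-value therefore comes only from how far the MPP to LT-HSC ratio differed between the 2 genotypes, moderated by the spread shared across genes, and it may be technical.

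LT-HSCs sit at the top of blood formation, divide rarely and can rebuild all blood lineages for the life of a recipient. MPPs lie downstream, have lost durable self-renewal and start to express genes of the lineages they will feed, a state called lineage priming. Leaving the stem cell state is known to go with entry into the cell cycle and with a larger demand for nucleotides, ribosomes and respiration. Ing4 encodes a chromatin reader found in the HBO1 histone acetyltransferase complex.

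Total counts were 7839326 in WT LT-HSCs and 9363442 in WT MPPs, against 35596876 and 39192588 in the Ing4-/- libraries. Reads on 1427 olfactory and vomeronasal receptor genes, which blood cells are not known to use, gave a background density of 22.4 counts per exonic kb for LT-HSCs and 18.1 for MPPs of the WT genotype, and at most 0.0853 in the Ing4-/- pair. Scaled by exon length, that density amounted to 33.4% and 22.6% of all counts in the WT pair. It was 0.028% and 0.0115% in the Ing4-/- pair, so it was higher in LT-HSCs in both genotypes. The mitochondrial share of counts was also higher in LT-HSCs, at 0.835% against 0.492% in WT and 1.28% against 0.936% in Ing4-/-. The part of either in the results was not tested, except where values with the background subtracted are given.

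The targeted gene checked the genotype labels. In WT cells Ing4 had 247 counts in the LT-HSC, 162 in the ST-HSC and 247 in the MPP library. In Ing4-/- cells it had 0, 24 and 76 counts, which is a level of 2.17 CPM in MPPs against 29.5 in WT MPPs. The expected background at its length was 119 counts in WT LT-HSCs and 96.3 in WT MPPs, and 34.9% of its exonic length overlaps another gene on the same strand. Ing4 itself was below the count minimum and was not tested.

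The surface markers used in the sort describe the gates and are not findings. Cd34, the sialomucin gated as negative in LT-HSCs and positive in MPPs, read 150 and 302 CPM in WT and Ing4-/- LT-HSCs, 325 and 697 in ST-HSCs and 868 and 1513 in MPPs. It was 5.38-fold higher in MPPs (log2 2.43 ± 0.19 SE, adjusted p = 0.00135, edgeR quasi-likelihood test with Benjamini-Hochberg adjustment, n = 2 libraries per population). Slamf1, which encodes CD150, read 143 and 110 CPM in LT-HSCs and 40.1 and 8.55 in MPPs, so its levels followed the gate in both genotypes (log2 -2.76 ± 0.60, adjusted p = 0.306). Kit, the stem cell factor receptor common to both gates, read 731 and 698 CPM in LT-HSCs and 846 and 970 in MPPs, a log2 difference of 0.34 ± 0.18 (adjusted p = 0.812). Ly6a, which encodes Sca-1, read 68.0 and 399 CPM in LT-HSCs and 74.2 and 161 in MPPs, so the genotypes moved in opposite directions.

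Cd48 and Flt3 were left out of the test because Ing4-/- LT-HSCs had 0 and 1 counts. Cd48, the gene of the signaling lymphocyte family receptor gated as negative in every population, had 50 counts in WT LT-HSCs and 376 in WT MPPs, a ratio of 6.18 (95% exact interval 4.59 to 8.47 for counting error). In Ing4-/- cells it had 0 counts in LT-HSCs and 4300 in MPPs, at least 1049-fold higher in MPPs by the lower bound of the exact interval and 1291-fold when 0 is taken as 3 counts. Flt3, the receptor tyrosine kinase that marks the loss of long-term repopulating capacity, had 286 counts in WT LT-HSCs and 1956 in WT MPPs (ratio 5.62, interval 4.96 to 6.38), and 1 against 10829 in Ing4-/- cells (ratio 9751, interval 1750 to 3.85e+05). Both genes were thus higher in MPPs in each genotype. Background would give 26.7 counts of Cd48 and 138 of Flt3 in WT LT-HSCs. In bulk RNA, fewer cells that express a gene and less of its RNA per cell cannot be told apart.

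Across the genes tested, 5557 (54.6%) lay on the same side in both genotypes. Of these, 2818 (27.7%) were higher in MPPs and 2739 (26.9%) higher in LT-HSCs, and the median log2 difference over all genes was 0.02. A difference of over 2-fold in both genotypes was seen for 184 genes higher in MPPs (1.81%) and 203 higher in LT-HSCs (2%), while 216 (2.12%) went over 2-fold in opposite directions. At an adjusted p under 0.05, 4 genes were called (0.0393%), 3 of them higher in MPPs (0.0295%) and 1 higher in LT-HSCs (0.00983%). At an unadjusted p under 0.05 there were 323 genes higher in MPPs (3.18%) and 282 higher in LT-HSCs (2.77%). The fit has 1 residual degree of freedom per gene, and the number of calls moved with its settings. No gene was called when the ST-HSC libraries joined the fit, with 594 genes at an unadjusted p under 0.05. None was called without the genotype block either (106 genes), and DESeq2 called 88 genes. Fits without 1 of the 4 libraries kept the ST-HSC libraries, so they cannot show what its loss does to the main fit.

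**Figure D1:**
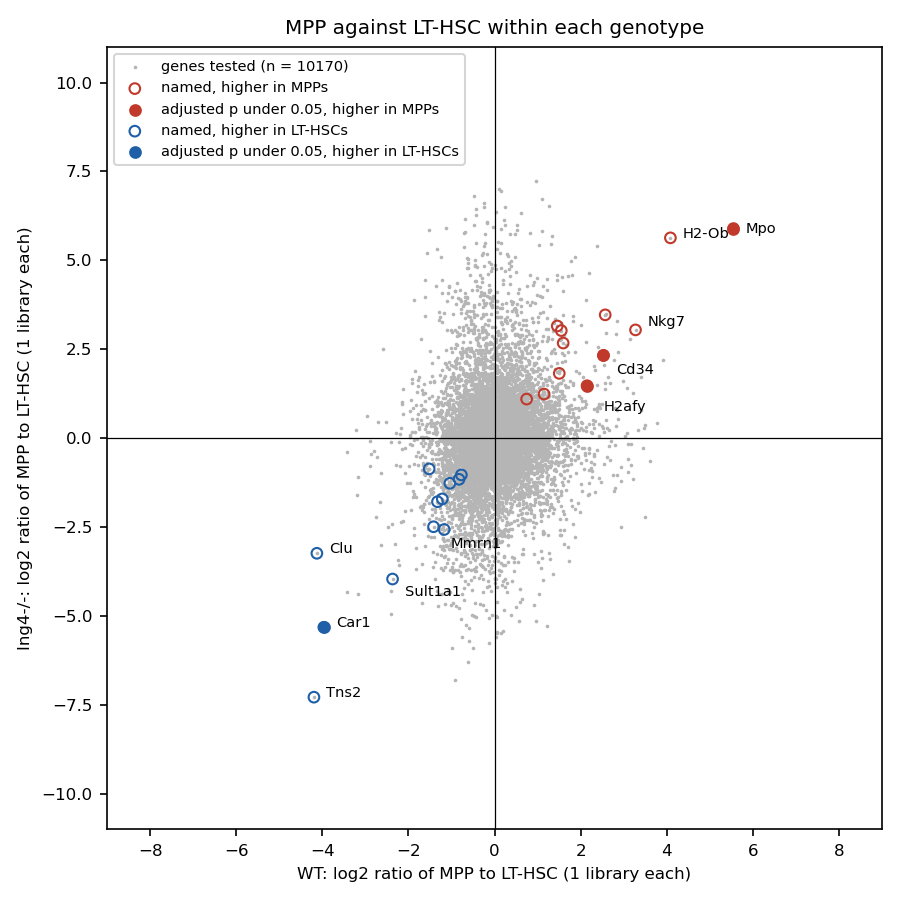
Each point is a tested gene, placed by its log2 ratio of MPP to LT-HSC in WT (x axis) and in Ing4-/- (y axis), 1 library each, with a prior count of 2. Genes higher in MPPs in both genotypes lie at the upper right and genes higher in LT-HSCs at the lower left. Filled circles mark the 4 genes with an adjusted p under 0.05 and open circles the other 20 named genes. Mpo stands farthest to the upper right, at 5.55 and 5.89, and the y axis covers a wider range than the x axis.

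The gene with the smallest p-value was Mpo, the myeloperoxidase of neutrophil granules and an early sign of commitment to the granulocyte and monocyte lineage. It read 3.92 and 4.29 CPM in WT and Ing4-/- LT-HSCs, 30.8 and 98.4 in ST-HSCs and 188 and 260 in MPPs, with raw counts of 27 and 135 in LT-HSCs and 1577 and 9107 in MPPs. The populations did not overlap, and ST-HSCs lay between them in both genotypes. Mpo rose 54.3-fold from LT-HSCs to MPPs (log2 5.76 ± 0.45, adjusted p = 0.00135, edgeR), by 5.55 in WT and 5.89 in Ing4-/- on the log2 scale. Mpo lies at chr11:87793581-87804413 in the GRCm38 annotation, and 15.0% of its exonic length overlaps a gene on the other strand. The 27 counts in WT LT-HSCs are below the 76.8 that the background density would place there.

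H2afy, which encodes the histone variant macroH2A1 found in repressed chromatin, was besides Cd34 the other gene that rose in MPPs. It read 107 and 373 CPM in LT-HSCs, 220 and 657 in ST-HSCs and 475 and 1036 in MPPs. Both MPP libraries were above both LT-HSC libraries, and the order of the 3 populations held within each genotype. The difference was 3.50-fold (log2 1.81 ± 0.23, adjusted p = 0.0467, edgeR), 2.15 in WT and 1.47 in Ing4-/- on the log2 scale.

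Car1, which encodes a carbonic anhydrase abundant in the erythroid lineage, was the gene that fell in MPPs. It read 199 and 102 CPM in LT-HSCs, 24.4 and 33.6 in ST-HSCs and 12.6 and 2.46 in MPPs, with 1370 and 3219 raw counts in LT-HSCs and 106 and 86 in MPPs. The 2 LT-HSC libraries were the highest of the 6 and the 2 MPP libraries the lowest. Car1 was 25.5-fold lower in MPPs (log2 -4.67 ± 0.59, adjusted p = 0.0467, edgeR), -3.97 in WT and -5.32 in Ing4-/-. The summed level of 10 red cell markers was 124 and 102 CPM in LT-HSCs and 124 and 82.5 in MPPs, where background would account for the whole WT LT-HSC sum (854 counts found, 882 from background). In the Ing4-/- pair Hba-a1 read 26.7 CPM in LT-HSCs and 15.2 in MPPs, Hbb-bs 13.3 and 6.84, and Epb42 19.4 and 0, while Hbb-bt read 32.8 and 54.5. Alas2, Slc4a1 and Sptb were at 0 in both Ing4-/- libraries.

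Next to these 4 genes, the named genes were the protein-coding genes with the smallest p-values among those on the same side in both genotypes, 12 in each direction. None of the other 20 passed the adjusted threshold, and their values are given as measured differences. Nkg7, a granule protein of cytotoxic and early myeloid cells, read 11.3 and 26.7 CPM in LT-HSCs and 110 and 221 in MPPs (log2 3.16 ± 0.44, adjusted p = 0.0635, edgeR). Ndrg1, a stress-inducible gene of differentiating cells, read 18.2 and 22.4 CPM in LT-HSCs and 108 and 249 in MPPs (log2 3.03 ± 0.45, adjusted p = 0.0783). H2-Ob, a chain of the H2-O regulator of class II peptide loading, read 3.05 and 2.35 CPM in LT-HSCs, 13.6 and 57.0 in ST-HSCs and 53.3 and 121 in MPPs (log2 4.93 ± 0.80, adjusted p = 0.129). For these 3 genes both MPP libraries exceeded both LT-HSC libraries by several times. In WT LT-HSCs, Ndrg1 had 125 counts and H2-Ob 21, below the 148 and 70.7 that background would place there.

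Serpinb1a, an inhibitor of neutrophil proteases, read 66.7 and 60.8 CPM in LT-HSCs and 195 and 495 in MPPs (log2 2.29). Csf3r, the receptor for granulocyte colony-stimulating factor, read 66.2 and 22.6 CPM in LT-HSCs and 200.1 and 145 in MPPs (log2 2.14). Cdk6, the G1 kinase whose level sets how fast stem cells leave quiescence, read 108 and 80.6 CPM in LT-HSCs, 253 and 285 in ST-HSCs and 306 and 284 in MPPs (log2 1.66 ± 0.29, adjusted p = 0.147, edgeR). Its ST-HSC levels were already close to those of MPPs. Of its 743 counts in WT LT-HSCs, 314 are what background would give. The rest on this side were Plppr3 (log2 2.31), the pentose phosphate enzyme Taldo1 (1.19) and Cmtm7 (0.92), with adjusted p-values of 0.224, 0.28 and 0.261.

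On the LT-HSC side, Mmrn1, which encodes the platelet adhesive protein multimerin and is used as a stem cell gene, read 802 and 933 CPM in LT-HSCs, 330 and 366 in ST-HSCs and 300.2 and 165 in MPPs (log2 -1.96 ± 0.27, adjusted p = 0.0635, edgeR). Coq8a, a kinase-like protein of coenzyme Q synthesis, read 443 and 754 CPM in LT-HSCs and 177 and 218 in MPPs (log2 -1.56 ± 0.23, adjusted p = 0.0773). Sult1a1, a sulfotransferase, read 127 and 219 CPM in LT-HSCs and 24.6 and 13.9 in MPPs (log2 -3.18). Each of these had both LT-HSC libraries above all ST-HSC and MPP libraries.

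Tns2, an adapter at focal adhesions, read 58.5 and 145 CPM in LT-HSCs, 8.71 and 14.7 in ST-HSCs and 3.10 and 0.829 in MPPs (log2 -5.85 ± 0.98, adjusted p = 0.129, edgeR). It had 26 and 29 counts in MPPs, and the background density would place 85.6 counts in WT MPPs. Clu, which encodes the secreted chaperone clusterin, read 60.0 and 132 CPM in LT-HSCs and 3.34 and 13.9 in MPPs (log2 -3.69), with 28 counts in WT MPPs where background would place 62.2. Levels this low in MPPs limit how well the size of either difference is known.

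Tsc22d1, a transcriptional regulator responsive to TGF-beta, read 1458 and 940 CPM in LT-HSCs and 509 and 515 in MPPs (log2 -1.19 ± 0.21, adjusted p = 0.151, edgeR). Its lowest library was Ing4-/- ST-HSC, at 220 CPM. Tgm2, the tissue transglutaminase, read 354 and 528 CPM in LT-HSCs and 157 and 88.6 in MPPs (log2 -1.87), although 21.8% of its exonic length overlaps a gene on the other strand. The remaining genes were Hacd4 (log2 -1.47), the ISG15-activating enzyme Uba7 (-1.16), Ppp1r15a, a phosphatase subunit induced by stress (-0.99), and Ifitm1 (-0.90). Uba7 read 634 and 450 CPM in LT-HSCs and 309 and 186 in MPPs.

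ST-HSCs lay between the other populations in both genotypes for 17 of the 24 named genes (70.8%), against 13.4% of all genes tested. The named genes were picked for their difference between LT-HSCs and MPPs, so a place in between is easier for them to take, and the figure is a description. The plot of the 24 genes by library shows this order most plainly for Mpo, Cd34 and H2afy.

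**Figure D2:**
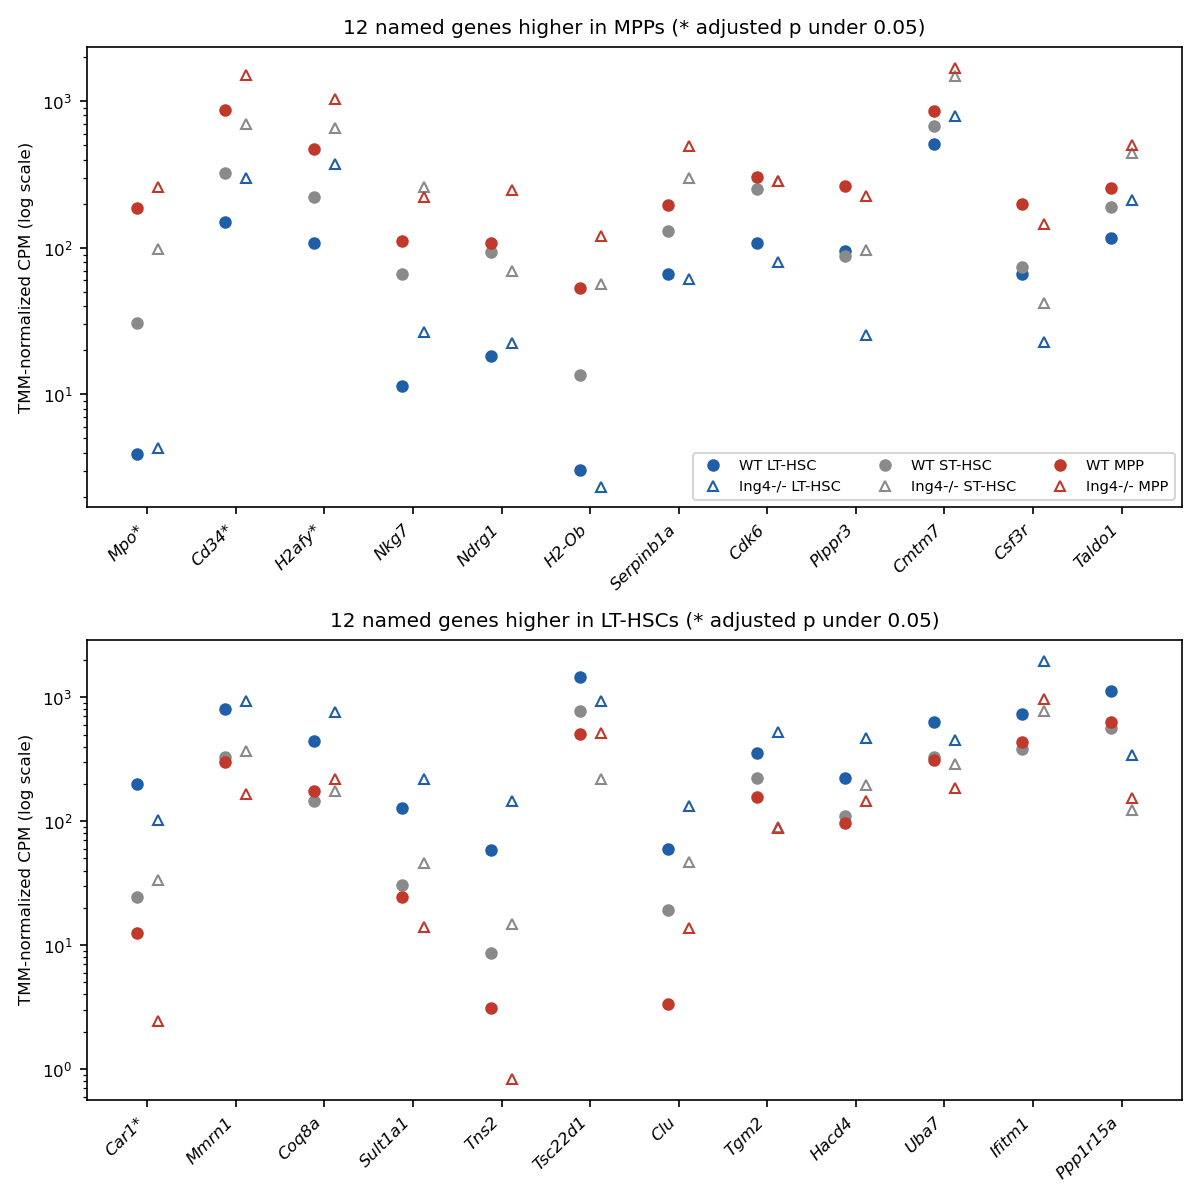
TMM-normalized CPM (log axis) of the 24 named genes in each of the 6 libraries, 12 higher in MPPs (top) and 12 higher in LT-HSCs (bottom). Circles are WT, triangles Ing4-/-, blue LT-HSC, gray ST-HSC and red MPP, with 1 library per symbol and an asterisk at the 4 genes with an adjusted p under 0.05. For Mpo the LT-HSC symbols sit at 3.92 and 4.29 CPM and the MPP symbols at 188 and 260, and for Car1 the order is turned around.

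Gene lists written for the roles these cells are known for were then described by the number of members on each side in both genotypes, beside 27.7% and 26.9% of all genes tested. Of 50 stem cell genes, 45 were tested and 33 (73.3%) were higher in LT-HSCs in both genotypes against 2 higher in MPPs. Over 2-fold differences in both genotypes were found in 11, all higher in LT-HSCs. The median log2 difference was -0.88, from -0.60 in WT and -1.17 in Ing4-/-. None passed the adjusted threshold, and 20 had an unadjusted p under 0.05 on the LT-HSC side, where the share over all genes was 2.77%. The 2 members on the MPP side were Hlf and Fgd5. Hlf read 92.2 and 234 CPM in LT-HSCs and 130 and 249 in MPPs, and Fgd5 48.1 and 7.78 against 49.1 and 42.8. Meis1, also in the list, hardly differed (log2 0.01).

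Within the stem cell list, Mllt3, a reader of acylated histones that supports stem cell maintenance, read 267 and 212 CPM in LT-HSCs, 164 and 102 in ST-HSCs and 107 and 69.4 in MPPs (log2 -1.47 ± 0.30, adjusted p = 0.28, edgeR). Ndn, which encodes the growth suppressor necdin, read 70.6 and 315 CPM in LT-HSCs and 32.2 and 85.5 in MPPs (log2 -1.51). Vwf, the platelet ligand von Willebrand factor that marks platelet-biased stem cells, read 206 and 245 CPM in LT-HSCs, 99.5 and 96.3 in ST-HSCs and 102 and 9.41 in MPPs (log2 -2.85 ± 0.80, adjusted p = 0.54). The WT MPP library kept a much higher Vwf level than the Ing4-/- one. Mycn read 128 and 258 CPM in LT-HSCs and 66.1 and 153 in MPPs, and Ifitm3, a membrane protein that restricts viruses, read 577 and 1713 in LT-HSCs and 436 and 985 in MPPs.

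The sort gene Slamf1 is among these members. Read over the whole list, the markers followed the labels. The summed level of the 50 stem cell genes was 10028 and 15893 CPM in LT-HSCs, 6786 and 8262 in ST-HSCs and 6852 and 7723 in MPPs, with both LT-HSC libraries on top. With the background subtracted from the counts, 32 of the 45 were on the LT-HSC side and 2 on the MPP side, and over all genes the shares were then 24.1% and 28.0%.

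Genes of the megakaryocyte and erythroid lineages also lay on the LT-HSC side. Of 36 such genes 25 were tested, and 18 (72.0%) were higher in LT-HSCs in both genotypes against 2 higher in MPPs (median log2 -0.44). The erythroid transcription factor Klf1 read 20.6 and 64.5 CPM in LT-HSCs and 3.82 and 3.17 in MPPs (log2 -3.41 ± 0.95, adjusted p = 0.54, edgeR). Muc13, a membrane mucin, was the exception among the members with the smallest p-values, at 309 and 154 CPM in LT-HSCs and 426 and 347 in MPPs (log2 0.82). Besides Car1, no member passed the adjusted threshold.

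Myeloid priming genes lay on the other side. Of 28, 17 were tested, 13 (76.5%) were higher in MPPs in both genotypes against 2 higher in LT-HSCs, 5 of them over 2-fold, and the median log2 difference was 0.68. Mpo was the member that passed. Plac8, a cysteine-rich protein of myeloid cells, read 33.4 and 41.6 CPM in LT-HSCs, 52.1 and 140 in ST-HSCs and 86.2 and 337 in MPPs (log2 2.20 ± 0.46, adjusted p = 0.295, edgeR). Hk3, the hexokinase of granulocytes, read 27.6 and 8.04 CPM in LT-HSCs and 60.5 and 95.3 in MPPs (log2 2.35), and the chaperone Calr 283 and 354 against 372 and 767 (log2 0.75). Of the 11 untested members, 5 had under 10 counts in Ing4-/- LT-HSCs only. The 13 markers of mature granulocytes summed to 132 and 69.6 CPM in LT-HSCs and 73.8 and 50.9 in MPPs. In the Ing4-/- pair S100a8 read 46.5 and 16.7 CPM, while Ngp read 1.05 and 11.4.

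Lymphoid priming genes were harder to read. Only 13 of 30 passed the count minimum, of which 7 (53.8%) were higher in MPPs in both genotypes and 2 higher in LT-HSCs. Runx3, a transcription factor of T and NK cells, read 11.5 and 5.88 CPM in LT-HSCs and 46.5 and 53.9 in MPPs (log2 2.61 ± 0.82, adjusted p = 0.707, edgeR). Tcf3, which encodes the E2A proteins that start the B lineage, read 38.9 and 86.5 CPM in LT-HSCs and 138 and 141 in MPPs (log2 1.26). Hdac7, a deacetylase of early B cells, read 18.2 and 0.572 CPM in LT-HSCs and 26.1 and 42.7 in MPPs, so its log2 difference of 3.30 came mostly from the Ing4-/- pair. Of 14 other surface markers of stem and progenitor cells 8 were tested, 2 of them higher in MPPs and 3 higher in LT-HSCs in both genotypes. The median of the lymphoid list was 0.66, and it turned to -0.08 over the members that kept 10 or more counts in every library once background was subtracted.

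**Figure D3:**
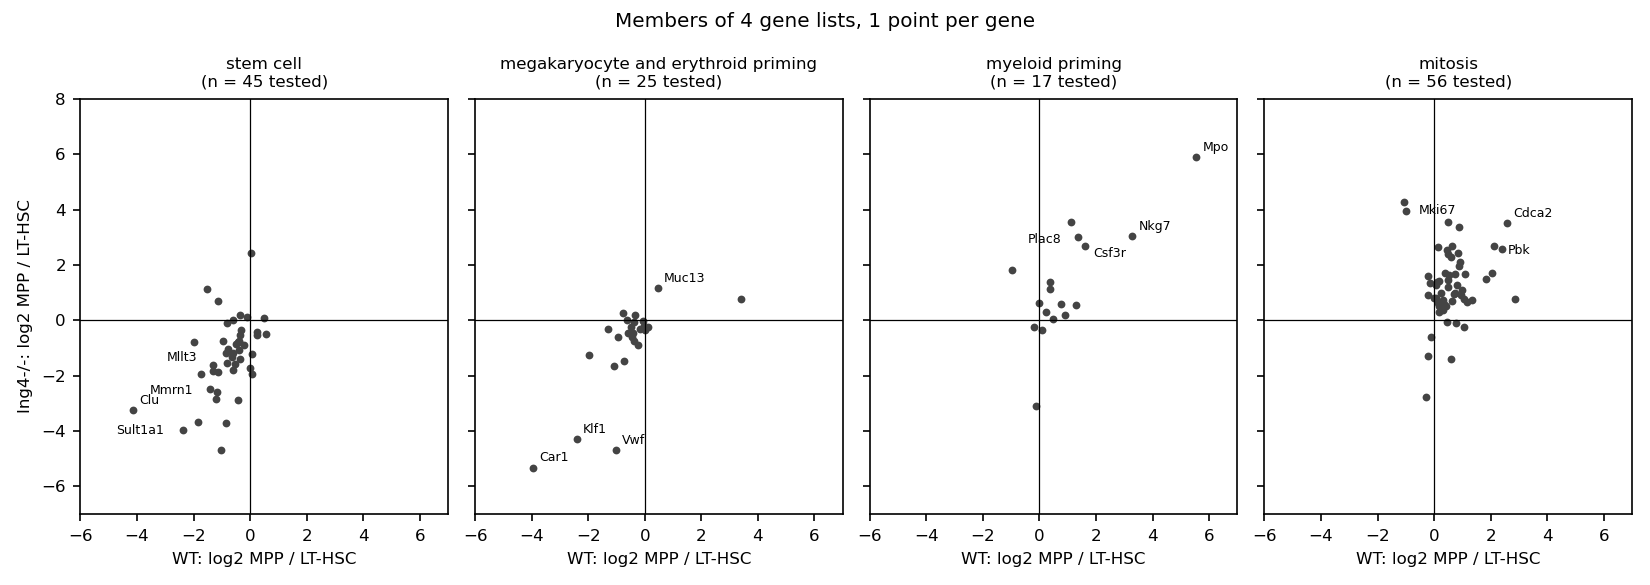
Log2 ratio of MPP to LT-HSC in WT (x axis) and in Ing4-/- (y axis) for the tested members of the stem cell, megakaryocyte and erythroid, myeloid priming and mitosis lists, 1 point per gene with some named. Stem cell and megakaryocyte and erythroid genes gather at the lower left (33 of 45 and 18 of 25) and myeloid and mitosis genes at the upper right (13 of 17 and 44 of 56).

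Most tested genes of DNA replication and mitosis lay on the MPP side. Of 61 DNA replication genes 56 were tested, and 35 (62.5%) were higher in MPPs in both genotypes against 6 higher in LT-HSCs (median log2 0.53). Of 86 mitosis genes 56 were tested, and 44 (78.6%) were higher in MPPs against 3 higher in LT-HSCs (median 0.92, from 0.50 in WT and 1.24 in Ing4-/-). None passed the adjusted threshold, while 13 replication and 17 mitosis genes had an unadjusted p under 0.05 on the MPP side, where the share over all genes was 3.18%. With the background subtracted, the mitosis counts were 44 and 2 and the replication counts 31 and 6.

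Among replication genes, Mcm6, a subunit of the MCM helicase, read 309 and 514 CPM in LT-HSCs, 616 and 1088 in ST-HSCs and 589 and 912 in MPPs (log2 0.88 ± 0.19, adjusted p = 0.306, edgeR). The helicase subunits Mcm5, Mcm7 and Mcm2 differed by 1.48, 0.90 and 0.99 on the log2 scale and the polymerase delta catalytic subunit Pold1 by 1.21. Tk1, the thymidine kinase made in S phase, read 15.8 and 13.1 CPM in LT-HSCs, 84.9 and 286 in ST-HSCs and 55.9 and 142 in MPPs (log2 2.64). For Mcm6 and Tk1 the ST-HSC level exceeded the MPP level in both genotypes.

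Among mitosis genes, Pbk, a mitotic kinase, read 7.55 and 20.1 CPM in LT-HSCs, 128 and 253 in ST-HSCs and 40.2 and 119 in MPPs (log2 2.49 ± 0.64, adjusted p = 0.46, edgeR). Ccnb2, which encodes cyclin B2, read 21.9 and 53.0 CPM in LT-HSCs, 142 and 212 in ST-HSCs and 78.2 and 150 in MPPs (log2 1.66). Cenpa, the histone variant of centromeres, read 19.0 and 40.1 CPM in LT-HSCs, 117 and 165 in ST-HSCs and 79.6 and 132 in MPPs (log2 1.89). In each of these LT-HSCs were lowest and ST-HSCs highest, in both genotypes. Cdca2 (log2 3.07), Stmn1 (0.88) and Tubb5 (0.82) completed the members with the smallest p-values.

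ST-HSCs were in fact the highest population in both genotypes for 45 of the 56 tested mitosis genes (80.4%) and 33 of the 56 replication genes (58.9%), against 13% of all genes tested. The summed level of the 86 mitosis genes was 4815 and 4744 CPM in LT-HSCs, 10517 and 15939 in ST-HSCs and 6545 and 10151 in MPPs. The step from LT-HSC to MPP in these genes was therefore smaller than the step from LT-HSC to ST-HSC in each genotype. No test was made of that order.

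All 30 untested mitosis genes were left out because Ing4-/- LT-HSCs alone had under 10 counts. The mitotic kinase Aurkb had 145 counts in WT LT-HSCs, 0 in Ing4-/- LT-HSCs, 496 in WT MPPs and 5746 in Ing4-/- MPPs. The kinesin Kif11 had 297, 0, 555 and 1376 counts, and the spindle bundling protein Prc1 had 208, 0, 624 and 2852. The condensin subunit Ncapd2 had 615, 5, 1181 and 2375. These genes were picked after their values were seen, and not all of the 30 rose in WT. From WT LT-HSCs to WT MPPs, Aurkb rose from 21.1 to 59.2 CPM. Anln fell from 66.9 to 34.6, Aspm from 73.8 to 49.3 and Ncapg from 57.8 to 34.6. Genes left out for low counts in Ing4-/- LT-HSCs were not limited to mitosis. Over all genes, 2587 had 10 or more counts in Ing4-/- MPPs and under 10 in Ing4-/- LT-HSCs, against 997 the other way around. The marker of cycling cells Mki67 was tested, at 65.8 and 0.731 CPM in LT-HSCs, 181 and 1.54 in ST-HSCs and 93.0 and 9.64 in MPPs (log2 2.05 ± 0.94, adjusted p = 0.812, edgeR). Of its 453 counts in WT LT-HSCs, 226 are what background would give.

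The promoters of tested list members were also searched, whichever way the members moved. Proliferation genes are known to carry CCAAT boxes, bound by the factor NF-Y, and a cell cycle homology region, or CHR, bound by the DREAM and MuvB complexes that hold them off in resting cells. In the 250 bases upstream of the RefSeq transcription start (GRCm38.p6), both strands were searched for CCAAT and for TTTGAA or TTCGAA as the CHR core. Promoters of 46 of the 56 tested mitosis genes were found. A CCAAT was present in 33 (71.7%), a CHR core in 18 (39.1%) and both in 15 (32.6%). Among the 7717 tested genes with a promoter the shares were 40.6%, 15.0% and 6.86%, and among all 27025 promoters they were 37.5%, 19.6% and 7.93%. The 32 stem cell genes with a promoter had 34.4%, 18.8% and 6.25%. Among 47 replication genes, CCAAT was found in 63.8%, and the E2F site TTTCCCGC or TTTGGCGC in 14.9%, against 3.11% of tested genes. These are matches of letters and say nothing of binding. The lists were written for proliferation genes, so the shares describe the lists and say nothing of the difference between LT-HSCs and MPPs.

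The promoters of Ccnb2, Mki67 and Cenpa are shown as examples of mitosis genes on the MPP side in both genotypes, none of which passed the adjusted threshold, and that of Mpo because it showed the largest called rise and holds neither motif. Each runs 5′ to 3′ on the gene's strand and ends at the base before the RefSeq start site. For Mpo that site lies inside the gene span given above, so most of the bases shown fall within that span. Capitals mark CCAAT, its reverse complement ATTGG, and CHR cores. Ccnb2 lies on the minus strand at chr9:70421555-70421804, Mki67 on the minus strand at chr7:135716380-135716629, Cenpa on the plus strand at chr5:30666636-30666885 and Mpo on the plus strand at chr11:87793534-87793783.
Ccnb2: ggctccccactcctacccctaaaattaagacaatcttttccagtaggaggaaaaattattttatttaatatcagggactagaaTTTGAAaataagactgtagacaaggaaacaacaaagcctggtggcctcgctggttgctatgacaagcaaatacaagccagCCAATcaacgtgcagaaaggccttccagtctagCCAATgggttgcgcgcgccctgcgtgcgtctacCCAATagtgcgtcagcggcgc
Mki67: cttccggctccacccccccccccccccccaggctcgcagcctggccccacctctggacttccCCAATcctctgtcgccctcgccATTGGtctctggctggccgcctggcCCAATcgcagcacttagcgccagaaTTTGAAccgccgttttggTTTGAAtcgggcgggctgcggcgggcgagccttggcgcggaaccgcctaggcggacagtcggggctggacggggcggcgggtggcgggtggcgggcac
Cenpa: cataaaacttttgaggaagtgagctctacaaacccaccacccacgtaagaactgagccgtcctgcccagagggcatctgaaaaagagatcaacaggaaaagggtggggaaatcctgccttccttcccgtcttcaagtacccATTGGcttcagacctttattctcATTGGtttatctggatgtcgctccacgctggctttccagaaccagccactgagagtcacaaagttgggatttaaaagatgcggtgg
Mpo: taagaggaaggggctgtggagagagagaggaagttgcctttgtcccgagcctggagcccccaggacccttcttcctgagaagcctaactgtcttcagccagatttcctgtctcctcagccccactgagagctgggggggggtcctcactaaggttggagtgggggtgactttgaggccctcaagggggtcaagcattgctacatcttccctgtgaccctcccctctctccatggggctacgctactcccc

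Ccnb2 held 3 CCAAT boxes and 1 CHR core, Mki67 3 CCAAT boxes counted over both strands and 2 CHR cores, and Cenpa 2 CCAAT boxes, both on the opposite strand. Ccnb2 and Cenpa read from 19.0 to 53.0 CPM in the LT-HSC libraries and from 78.2 to 150 CPM in the MPP libraries, so their groups did not overlap, whereas those of Mki67 did (65.8 and 0.731 CPM against 93.0 and 9.64).

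Regulators of G1 and quiescence were split, with 15 of 40 tested members higher in MPPs in both genotypes and 16 higher in LT-HSCs. Cdk4, the partner of D cyclins, read 286 and 480 CPM in LT-HSCs and 448 and 1036 in MPPs (log2 0.88 ± 0.21, adjusted p = 0.37, edgeR). Tsc22d3, a glucocorticoid-induced leucine zipper gene, read 1879 and 530 CPM in LT-HSCs and 1186 and 289 in MPPs (log2 -0.77), and Txnip, a brake on glucose uptake, 1419 and 1830 against 1089 and 861 (log2 -0.73). Cdkn1c, which encodes the quiescence factor p57, read 6.83 and 41.1 CPM in LT-HSCs and 3.70 and 18.2 in MPPs (log2 -1.03 ± 0.83, adjusted p = 0.836). Its WT counts of 47 and 31 were at the background of 45.7 and 36.9, and its level in Ing4-/- ST-HSCs was 42.0 CPM.

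Immediate-early genes respond within minutes to signals and to handling of cells. Of 35 tested members 15 (42.9%) were higher in LT-HSCs in both genotypes against 4 higher in MPPs. The median log2 difference was -0.44, from -0.16 in WT and -0.81 in Ing4-/-. The summed level was 12601 and 11759 CPM in LT-HSCs and 13168 and 6303 in MPPs, so it fell only in Ing4-/-. Fos, Jun and Ier2 were higher in MPPs in WT (log2 0.32, 0.58 and 0.55) and lower in Ing4-/- (-0.63, -1.04 and -1.06). The orphan nuclear receptor Nr4a1 read 306 and 260 CPM in LT-HSCs, 145 and 66.7 in ST-HSCs and 155 and 101 in MPPs (log2 -1.17 ± 0.28, adjusted p = 0.378, edgeR). Egr1, a zinc finger factor that restrains stem cell division, read 1554 and 772 CPM in LT-HSCs and 1098 and 325 in MPPs (log2 -0.88), Klf6 558 and 766 against 498 and 242, Btg2 220 and 271 against 165 and 117, and Atf3 48.5 and 67.5 against 18.6 and 16.9. Whether handling of the cells had a part in these differences was not tested.

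Among stem cell transcription factors, 13 of 43 tested members (30.2%) were higher in MPPs in both genotypes and 16 (37.2%) higher in LT-HSCs. The shares of all genes tested were 27.7% and 26.9%. Id1, an inhibitor of basic helix-loop-helix factors and a target of BMP signals, read 48.6 and 73.7 CPM in LT-HSCs, 11.1 and 8.76 in ST-HSCs and 8.71 and 13.0 in MPPs (log2 -2.49 ± 0.73, adjusted p = 0.613, edgeR), with nearly the same ratio in WT (-2.47) and Ing4-/- (-2.50). Only 5 of 21 Hox genes passed the count minimum and 3 of them were higher in LT-HSCs in both genotypes, or 1 of 5 with the background subtracted, and the list median changed sign in 3 of 19 alternative settings. Hoxa10 read 38.5 and 97.8 CPM in LT-HSCs and 24.9 and 39.3 in MPPs, and Hoxb5, used as a marker of long-term stem cells, 5.66 and 17.7 against 4.17 and 2.32. TGF-beta signaling had 6 members on each side of 26, with the coreceptor Tgfbr3 at 104 and 161 CPM in LT-HSCs and 60.9 and 39.2 in MPPs (log2 -1.41).

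Adhesion, homing and cytokine receptor genes split into 14 higher in MPPs and 15 higher in LT-HSCs of 47. The junction protein F11r read 157 and 299 CPM in LT-HSCs and 89.1 and 93.4 in MPPs (log2 -1.25), while Selplg, the P-selectin ligand, read 170 and 304 in LT-HSCs and 344 and 447 in MPPs (log2 0.79). Interferon response genes had 11 higher in MPPs and 15 higher in LT-HSCs of 48. Ifi44 read 128 and 119 CPM in LT-HSCs and 65.2 and 29.5 in MPPs (log2 -1.49). Of 23 antigen presentation genes 5 were higher in MPPs and 9 higher in LT-HSCs. The class I gene H2-T23 read 499.8 and 1065 CPM in LT-HSCs and 378 and 612 in MPPs, the peptide transporter Tap2 245 and 248 against 437 and 342, and Cd74, the invariant chain, 49.5 and 218 against 35.7 and 53.6. H2-Ob and Cd74, both of the class II pathway, had differences of opposite sign.

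Genes of growth and energy supply showed small differences. Of 77 nuclear-encoded oxidative phosphorylation genes 36 (46.8%) were higher in MPPs in both genotypes against 9 higher in LT-HSCs, with a median of 0.15. Sdha, the catalytic subunit of complex II, read 389 and 452 CPM in LT-HSCs and 507 and 767 in MPPs (log2 0.57). Of 108 ribosome biogenesis genes 46 (42.6%) were higher in MPPs and 19 in LT-HSCs (median 0.19), with the 60S assembly factor Eif6 at 91.6 and 152 CPM in LT-HSCs and 171 and 311 in MPPs (log2 0.97). Of 27 glycolysis genes 11 were higher in MPPs and 5 in LT-HSCs, with the mutase Pgam1 at 47.8 and 72.8 CPM in LT-HSCs and 89.0 and 186 in MPPs. Cytosolic ribosomal protein genes had 18 of 82 higher in MPPs and 15 higher in LT-HSCs (median 0.03), or 11 and 28 with background subtracted. Their median changed sign in 6 of 19 alternative settings, so they have no direction here.

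**Figure D4:**
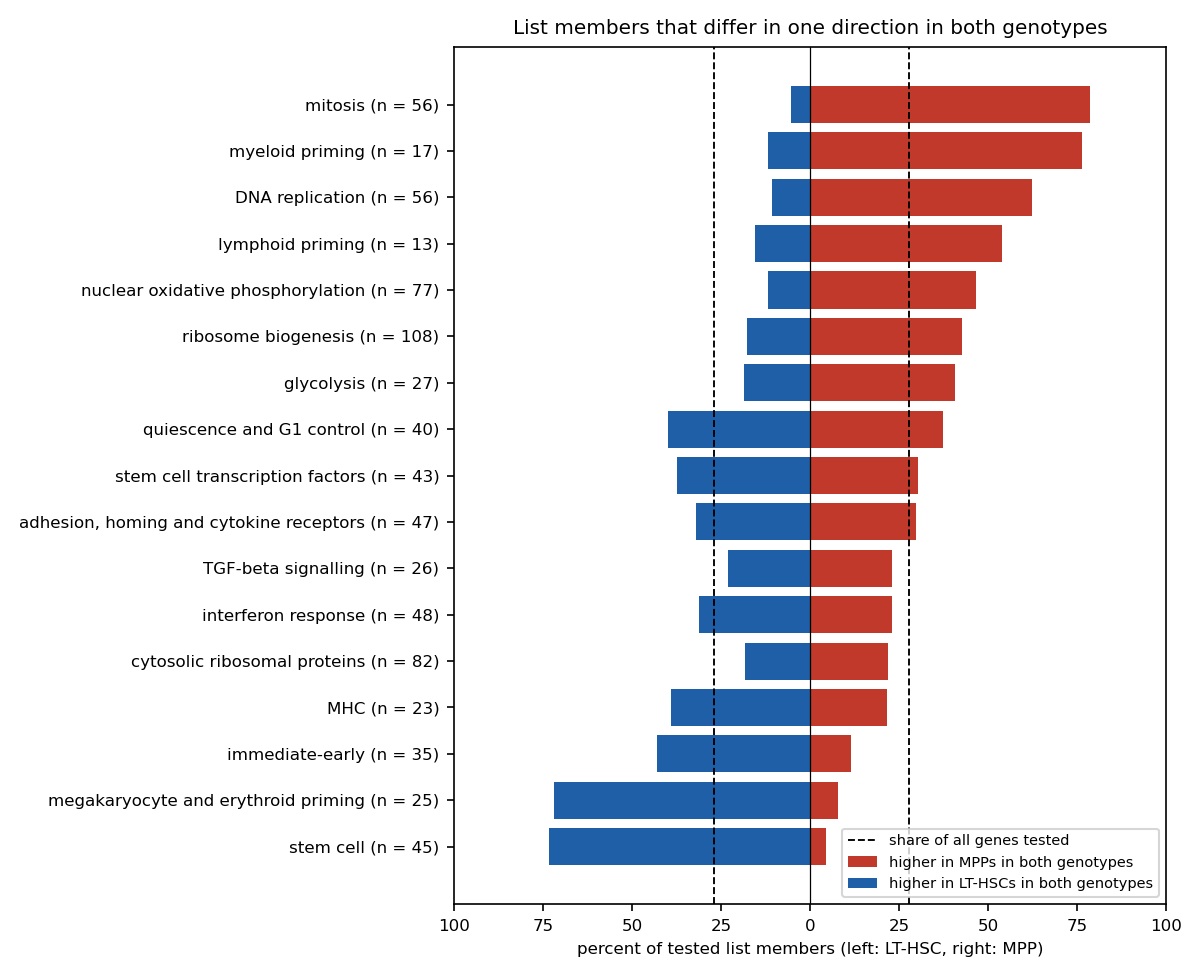
Percent of the tested members of each gene list that were higher in MPPs in both genotypes (red, to the right) or higher in LT-HSCs in both genotypes (blue, to the left), for lists with 10 or more tested members. Dashed lines mark the shares of all genes tested, 27.7% and 26.9%. Mitosis (78.6%) and myeloid priming (76.5%) reach farthest to the right and stem cell (73.3%) and megakaryocyte and erythroid priming (72.0%) farthest to the left.

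Most markers of other cells were low or at 0 in the Ing4-/- libraries. Lyz2 was not, at 492 and 866 CPM in LT-HSCs and 434 and 739 in MPPs. Monocyte and macrophage markers summed to 702 and 921 CPM in LT-HSCs and 590 and 764 in MPPs, and nearly all of it was Lyz2 in the Ing4-/- libraries, where 8 and 5 of 12 markers were at 0. B cell markers summed to 225 and 125 CPM in LT-HSCs and 170 and 73.8 in MPPs, with 9 and 8 of 12 at 0 in the Ing4-/- libraries, Pax5 and Ebf1 among them. T and NK cell markers summed to 144 and 55.5 against 150.4 and 72.4, with 12 and 9 of 14 at 0, Cd3e and Cd3g among them. Stromal and endothelial markers summed to 512 and 221 CPM in LT-HSCs and 366 and 97.9 in MPPs. In the Ing4-/- libraries 4 and 6 of 15 were at 0, Lepr and Acan among them. The sum was thus higher in LT-HSCs in both genotypes, and in the Ing4-/- pair mostly through Sparc, at 117 and 4.58 CPM. The part of these markers in the results was not tested. In WT LT-HSCs background would give 1070 of the 1549 counts on B cell markers.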

How the data were processed

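Per library, the authors deposited raw read counts over 49315 mouse genes that had not been normalized. Bone marrow of several mice was pooled per genotype, lineage depleted and sorted, and a company made and sequenced the libraries. The submitters' processing notes name the build mm10. Aligner, counting program and strand setting are not given in the sources used here. Symbols, positions and exon lengths came from GENCODE M21 (GRCm38), in which 48970 genes were found, 44772 with identical spans.

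The 2 MPP and 2 LT-HSC libraries were fitted in edgeR 4.0.16 (R 4.3.3, limma 3.58.1) with genotype and population as terms, TMM normalization and the quasi-likelihood F test, over the 10170 genes with 10 or more counts in all 4. Adjustment for multiple testing followed Benjamini and Hochberg over those genes. A gene was called at an adjusted p under 0.05 with log2 ratios of the same sign in both genotypes. The common dispersion was 0.215. Each standard error is the size of the log2 fold change over the square root of F. CPM is relative to counts on tested genes after TMM, and ratios within a genotype, 1 library against 1, used a prior count of 2 and have no test. Standard errors and adjusted p-values rest on 1 residual degree of freedom per gene and on the spread shared across genes.

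Named genes were the called protein-coding genes and then, up to 12 per direction, those of smallest unadjusted p on the same side in both genotypes, which did not pass, plus the sort markers, Flt3, Ing4, Mki67, Cdkn1c and up to 6 members of each list by p, of which a few are not reported here. The untested mitosis genes with values were chosen after their values were seen. Members and lists were chosen with earlier results of these data known. Lists are described by counts and medians, with no set test. Total counts ranged from 7839326 to 39192588. A count of 0 allows up to 3 counts, or 0.0765 to 0.383 CPM at the total depth of the 4 libraries. Intervals and this floor include no error but that of counting.

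Background was the density of counts on olfactory and vomeronasal receptor genes times exon length. Alternatives were other normalizations, DESeq2 1.42.0, limma-voom, other filters and thresholds, background subtraction, thinning to equal depth and removal of a length trend. Others were no genotype block, all 6 libraries, and the 6 without each LT-HSC or MPP library in turn. A pair were added after seeing the data, only genes at 2 or more times background, and subtraction with 10 or more counts left. The fits were tested on simulated counts. Tables were made with pandas 2.3.3 and numpy 2.4.6, and promoters were taken from RefSeq (GRCm38.p6).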

Additional observations from a re-analysis of the deposited data

Results flagged for a closer look

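Ly6a, which encodes Sca-1, moved in opposite directions in the 2 genotypes. Its log2 ratio of MPP to LT-HSC was 0.126 in WT (68.0 against 74.2 CPM) and -1.31 in Ing4-/- (399 against 161 CPM). With 1 library on each side the difference between the genotypes was not tested. Sca-1 was part of both sort gates.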

How the results depend on the processing

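The number of called genes depended on the settings. The main fit gave 4, 3 higher in MPPs and 1 higher in LT-HSCs. The count was 2, with 2 higher in MPPs and 0 higher in LT-HSCs, with DESeq2 size factors and with the length trend removed. It was 12 (7 and 5) with upper-quartile normalization, 88 (48 and 40) with the DESeq2 Wald test, 29 (14 and 15) with limma-voom, 22 (11 and 11) at 50 or more counts, 8 (5 and 3) after thinning to equal depth, 8 (5 and 3) at an adjusted p under 0.1 and 7 (4 and 3) over protein-coding genes only. It was 0 in edgeR with filterByExpr (322 genes at an unadjusted p under 0.05), with no filter (317), with the background subtracted (446), with no genotype block (106) and with all 6 libraries (594). Fits that left out each LT-HSC or MPP library in turn kept both ST-HSC libraries, and the lone library was then assumed to vary like the others. Of the alternatives added after seeing the data, genes at 2 or more times background gave 0 (380 at an unadjusted p under 0.05) among 7045 genes, and background subtraction with 10 or more counts left gave 62 (27 and 35), 3 of them shared with the 4. The cause of these changes was not tested. Labels carry no replicate numbers, so no replicate block could be made beyond genotype, which was in the main fit.

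The direction of the 4 called genes held in every setting that gave a value, 19 for Mpo and 22 for each of the others. The log2 difference ranged from 5.32 to 7.14 for Mpo, from 2.29 to 2.55 for Cd34, from 1.51 to 2.08 for H2afy and from -5.78 to -3.67 for Car1, and they stayed called in 10, 12, 10 and 10 settings, at adjusted p-values up to 1. Ly6a was the gene that turned, from -0.60 to 0.30 without the Ing4-/- LT-HSC library, within a range of -1.48 to 0.30 over the libraries left out. List medians kept their sign in 19 settings for stem cell (-1.22 to -0.68), mitosis (0.46 to 1.20), DNA replication (0.34 to 0.90), myeloid priming (0.50 to 0.86), megakaryocyte and erythroid priming (-0.59 to -0.33), immediate-early (-0.83 to -0.02), oxidative phosphorylation (0.05 to 0.26), ribosome biogenesis (0.07 to 0.30), interferon response (-0.40 to -0.02) and glycolysis (0.14 to 0.32) genes. Depth limits low genes most in the WT libraries, where 3 counts are 0.32 to 0.383 CPM, against 0.0765 to 0.0843 CPM in the Ing4-/- libraries compared.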
